A study of Mus musculus with 12 samples.

Results

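Dok3, Sds, Gm14378, Tcte2, Dqx1, Tmem86b, Stac3 and Ap1g2 are 8 of the 23352 gene entries measured by RNA sequencing of mouse hippocampus. They were picked from the deposited values for their rises, at both ages, in mice expressing N40K over wild-type mice. Their genotype differences are therefore given as a description, without a test. Tests were run on what the choice did not use: the difference between the ages and the genes that lie beside or across each of the 8.

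N40K is a truncated form of U1-70K, the protein encoded by Snrnp70. The transgenic mice came from 1 line, Tg396, on the C57BL/6J strain, and carried N40K under a modified CaMKIIa promoter, which limits its expression to neurons. The libraries formed 4 groups of 3: N40K mice at 3 months, wild-type mice at 3 months, N40K mice at 12 months and wild-type mice at 12 months. The wild-type mice carried no transgene, and sex was not among the labels. The protocol text mentions tumor samples, whereas tissue and sample descriptions give hippocampus.

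U1-70K is part of the U1 small nuclear ribonucleoprotein (U1 snRNP), which pairs with the 5′ splice sites of introns in new transcripts. The same particle is also known to keep RNA polymerase II transcripts from being cut and polyadenylated too early within genes. Where one gene ends, cleavage and polyadenylation at its end normally separate its transcript from that of the next gene downstream.

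The 8 genes have unrelated textbook roles. Dok3 encodes an adaptor that restrains signalling in B cells and macrophages, and Sds encodes serine dehydratase, which turns serine into pyruvate and is best known from liver. Gm14378 is now named Tgfbr3l, a relative of a co-receptor for transforming growth factor beta. Tcte2 was named for its expression in testis, Dqx1 encodes a protein of the RNA helicase family, and Tmem86b encodes a lysoplasmalogenase, an enzyme that degrades ether lipids. Stac3 encodes an adaptor needed for excitation-contraction coupling in skeletal muscle. Ap1g2 encodes a gamma-adaptin, a subunit of a clathrin adaptor complex.

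For 6 of the 8, the nearest non-overlapping upstream gene among those with a row in the deposited table lay on the same strand. It ended between 35 and 2301 bases before the start of the gene (GRCm38 gene models). These pairs were Ddx41 and Dok3, Map2k7 and Gm14378, Aup1 and Dqx1, Ppp6r1 and Tmem86b, R3hdm2 and Stac3, and Jph4 and Ap1g2. The last 30 bases of the 6 upstream genes (GENCODE M21, GRCm38) are shown because they hold the end of the transcript that precedes each of these genes; capitals mark the polyadenylation signal AATAAA where these bases hold it.
Ddx41 (chromosome 13): taaagcacaatcccttttcttggaccagtt
Map2k7 (chromosome 8): tgagAATAAAacccttcccttttcttccga
Aup1 (chromosome 6): ctgtgaaattacactaaactgaagacaaaa
Ppp6r1 (chromosome 7): cagatataAATAAAggaagatagcagaaca
R3hdm2 (chromosome 10): aaaagcaaaaaaacctgtcactggccatca
Jph4 (chromosome 14): gtatattAATAAAaaagttccaaaaagggg
The signal was present in 3 of the 6 ends, read on the transcript strand only, and in 55.3% of the ends of 12924 protein-coding genes tested. It lay 20 bases from the end in Map2k7, 16 in Ppp6r1 and 17 in Jph4.

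The end of Jph4 and the window before Ap1g2 run into each other. The 300 bases around the start of Ap1g2 (RefSeq, GRCm38.p6, chr14:55106544-55106843, minus strand) are shown with the 18 bases that are also the end of Jph4 in capitals.
Ap1g2 promoter window: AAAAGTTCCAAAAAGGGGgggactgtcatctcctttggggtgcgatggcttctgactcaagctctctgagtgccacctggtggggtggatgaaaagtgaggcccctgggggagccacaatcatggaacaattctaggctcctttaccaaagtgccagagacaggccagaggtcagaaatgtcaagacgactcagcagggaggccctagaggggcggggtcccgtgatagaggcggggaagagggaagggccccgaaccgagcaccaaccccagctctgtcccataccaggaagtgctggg
The window of Ap1g2 held 7 CG pairs, which is the median of 32851 RefSeq promoter windows.

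In the whole series, library depth, estimated approximately from step sizes among low values, lay between 39.6 and 97.2 M fragments. Snrnp70, the gene that N40K comes from, was at 399.0, 401.0 and 377.3 FPKM (fragments per kilobase of transcript per M mapped reads) in N40K mice at 3 months, against 179.0, 160.8 and 179.1 FPKM in wild-type mice. The 12-month levels were 304.7, 320.02 and 258.6 FPKM in N40K mice, against 137.9, 95.96 and 133.3 FPKM in wild-type mice. Whether transgene reads count in that row was not tested. The 6 pyramidal neuron markers summed to 1662 to 1951 FPKM in N40K mice, against 1785 to 1956 FPKM in wild-type mice at 3 months. At 12 months the sums did not overlap, at 1471 to 1588 FPKM in N40K mice, against 1698 to 1804 FPKM in wild-type mice. Spink8 was lower at both ages (-0.53 and -0.52, limma, adjusted p = 0.0249 and 0.0190, calls lost under 6 and 1 of 19 alternatives). At 12 months Slc17a7 was lower (-0.31, adjusted p = 0.00456), as was Camk2a (-0.20, adjusted p = 0.0417, lost under 10 of 19), and Wfs1 was higher (0.58, adjusted p = 0.00789). Of 4 endothelial markers, Flt1 and Slco1a4 were higher at 12 months (0.32 and 0.63, adjusted p = 0.0115 and 5.7e-04), all 4 being under an unadjusted p of 0.05. The shares over all genes at that age were 11.2% higher and 7.71% lower, and 4801 of 13945 genes were under an unadjusted p of 0.05 (limma). None of the 4 endothelial markers was called at 3 months (limma, 0 under an unadjusted p of 0.05). Oligodendrocyte marker sums at 12 months were 1283 to 1374 FPKM in N40K mice, against 1433 to 1553 FPKM in wild-type mice. At 3 months they overlapped, at 1398 to 1855 FPKM in N40K mice, against 1578 to 1923 FPKM in wild-type mice. Astrocyte marker sums at 3 months were 354 to 364 FPKM in N40K mice, against 333 to 348 FPKM in wild-type mice. Those at 12 months overlapped, at 339 to 350 FPKM in N40K mice, against 324 to 352 FPKM in wild-type mice. No oligodendrocyte or astrocyte marker was called between genotypes at either age. The 6 choroid plexus markers varied widely within groups. Their sums at 3 months were 79.5 to 1742 FPKM in N40K mice, against 131 to 5917 FPKM in wild-type mice. At 12 months the sums were 29.0 to 3056 FPKM in N40K mice, against 1077 to 2200 FPKM in wild-type mice. None of these 6 was called between genotypes at either age (limma). The part of all these markers in the changes of the 8 genes was not tested. Xist was at 17.3 FPKM in N40K replicate 3 and at 14.6 and 13.5 FPKM in wild-type replicates 2 and 3 at 3 months, and under 0.12 FPKM in the other libraries. Ddx3y, a Y-chromosome gene, was at most 0.0647 FPKM in the libraries with high Xist and at 13.9 FPKM or more in the others. By these genes the sex mix differed between the genotypes at 3 months, and all 12-month libraries had the male pattern. In whole tissue, fewer cells of a type and less RNA per cell cannot be told apart.

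**Figure D1:**
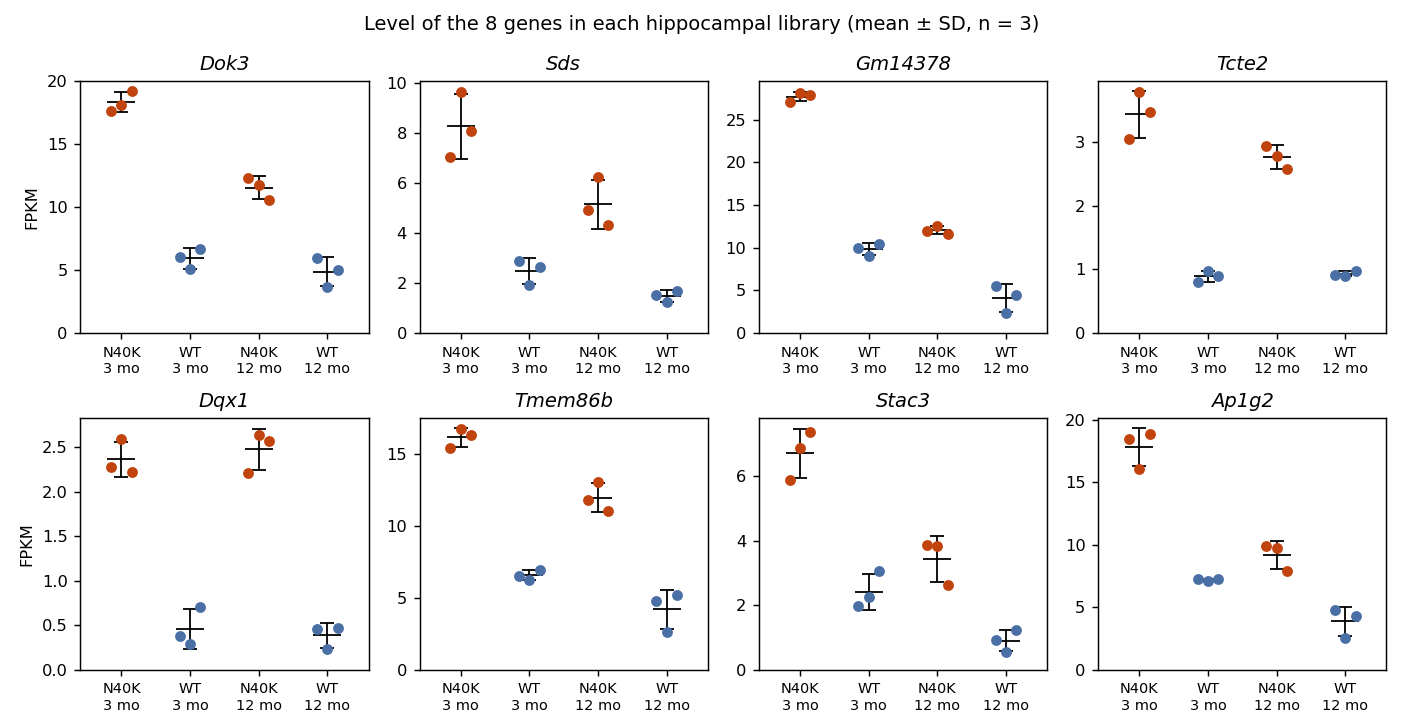
Levels of the 8 genes in FPKM (vertical axes, each starting at 0) in N40K and wild-type (WT) mice at 3 and 12 months; points are libraries and lines are the mean and SD of 3. In every panel, the lowest N40K library lies above the highest wild-type library of the same age.

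Gm14378 was the highest of the 8 in N40K mice at 3 months. Its levels there were 27.1, 28.1 and 27.9 FPKM, against 10.02, 9.05 and 10.4 FPKM in wild-type mice of the same age. Among the older mice it was at 11.9, 12.6 and 11.6 FPKM in N40K mice, against 5.55, 2.37 and 4.44 FPKM in wild-type mice. The groups did not overlap at either age, and N40K mice at 12 months had levels just above those of the younger wild-type mice. Means of N40K and wild-type mice had a ratio of 2.82 at 3 months and 2.93 at 12 months. Wild-type replicate 2 stood below its group at 12 months. GENCODE also lists a protein-coding gene, Gm49320, that spans Map2k7 and Gm14378 on the same strand and has no row of its own in the deposited table.

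Dok3 was at 17.7, 18.1 and 19.2 FPKM in N40K mice at 3 months, against 6.02, 5.08 and 6.71 FPKM in wild-type mice. At 12 months it was at 12.3, 11.8 and 10.6 FPKM in N40K mice, against 5.996, 3.65 and 5.01 FPKM in wild-type mice. The lowest N40K library was above the highest wild-type library at both ages. N40K means over wild-type means gave 3.09 at 3 months and 2.36 at 12 months.

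Ap1g2 was at 18.5, 16.1 and 18.9 FPKM in N40K mice at 3 months, against 7.27, 7.11 and 7.21 FPKM in wild-type mice. The 12-month levels were 9.88, 9.76 and 7.87 FPKM in N40K mice, against 4.75, 2.52 and 4.32 FPKM in wild-type mice. The younger wild-type libraries were nearly equal, and no groups of the same age overlapped. The ratio of means was 2.47 at 3 months and 2.37 at 12 months.

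Tmem86b was at 15.4, 16.7 and 16.3 FPKM in N40K mice at 3 months, against 6.55, 6.26 and 6.94 FPKM in wild-type mice. Among the older mice it was at 11.8, 13.03 and 11.01 FPKM in N40K mice, against 4.76, 2.64 and 5.17 FPKM in wild-type mice. The genotypes were again separated at each age. Means of N40K and wild-type mice had a ratio of 2.45 at 3 months and 2.85 at 12 months. An antisense gene, Gm44877, overlaps Tmem86b and has no row.

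Sds was at 7.05, 9.65 and 8.06 FPKM in N40K mice at 3 months, against 2.895, 1.91 and 2.64 FPKM in wild-type mice. At 12 months it was at 4.90, 6.23 and 4.31 FPKM in N40K mice, against 1.51, 1.22 and 1.68 FPKM in wild-type mice. The N40K libraries varied more among themselves than the wild-type ones in FPKM, without reaching the wild-type range. N40K means over wild-type means gave 3.32 at 3 months and 3.50 at 12 months. Of 6 markers of liver, the tissue where Sds is best known, Alb, Apob, Fgb, Serpina1a and Cps1 were under 1 FPKM in every library. The sums over all 6 overlapped at 3 months but not at 12 months. They were 1.00 to 1.46 FPKM in N40K mice, against 0.910 to 1.24 FPKM in wild-type mice at 3 months, and 1.29 to 1.47 FPKM in N40K mice, against 0.839 to 0.951 FPKM in wild-type mice at 12 months. Apoa2 made up most of them and was higher at 12 months (0.39, limma, adjusted p = 0.0264, a call lost under 5 of 19 alternatives); its part in the result was not tested.

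Stac3 was at 5.89, 6.89 and 7.37 FPKM in N40K mice at 3 months, against 1.97, 2.24 and 3.05 FPKM in wild-type mice. The 12-month levels were 3.85, 3.83 and 2.63 FPKM in N40K mice, against 0.928, 0.554 and 1.23 FPKM in wild-type mice. Genotypes of 1 age did not overlap, although the lowest N40K library at 12 months was below the highest wild-type library at 3 months. The ratio of means was 2.77 at 3 months and 3.80 at 12 months. Sums of the 6 skeletal muscle markers overlapped between genotypes at 3 months but not at 12 months. They were 5.17 to 6.16 FPKM in N40K mice, against 5.07 to 5.80 FPKM in wild-type mice at 3 months, and 5.20 to 5.98 FPKM in N40K mice, against 4.31 to 4.77 FPKM in wild-type mice at 12 months. Of these, Ckm, Myh4, Tnnt3 and Tnni2 were under 1 FPKM in every library. Acta1 and Mylpf differed by -0.04 and 0.20 at 3 months (limma, adjusted p = 0.800 and 0.314) and by 0.17 and 0.26 at 12 months (adjusted p = 0.197 and 0.139), and their part in the result was not tested.

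Tcte2 was at 3.05, 3.79 and 3.47 FPKM in N40K mice at 3 months, against 0.803, 0.973 and 0.892 FPKM in wild-type mice. Among the older mice it was at 2.94, 2.79 and 2.58 FPKM in N40K mice, against 0.915, 0.897 and 0.973 FPKM in wild-type mice. All 6 wild-type libraries were under 1 FPKM and all 6 N40K libraries above it. Means of N40K and wild-type mice had a ratio of 3.86 at 3 months and 2.98 at 12 months. The 5 testis markers summed to at most 0.459 FPKM in any library.

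Dqx1 was the lowest of the 8 in wild-type mice and had the largest ratio. It was at 2.27, 2.59 and 2.22 FPKM in N40K mice at 3 months, against 0.377, 0.287 and 0.706 FPKM in wild-type mice. At 12 months it was at 2.21, 2.64 and 2.57 FPKM in N40K mice, against 0.452, 0.229 and 0.473 FPKM in wild-type mice. The N40K libraries of both ages lay in the same range. N40K means over wild-type means gave 5.17 at 3 months and 6.43 at 12 months. Its lowest library, wild-type replicate 2 at 12 months, held about 33 fragments, the lowest estimate for any of the 8 genes in any library.

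On the log2(FPKM + 1) scale used for all fits, which understates the change of low genes, the differences of the 8 genes ran from 1.18 to 1.49 at 3 months and from 0.97 to 1.40 at 12 months, with standard errors from 0.07 (Tcte2) to 0.18 (Gm14378). All 8 had every N40K library above every wild-type library at 3 months (background 20.4% of 13945 genes). The same held at 12 months (background 21.3%), and 10.3% of all genes were separated in this way at both ages. The choice of the 8 for large rises made this separation likely. Over all genes, the change of the genotype difference from 3 to 12 months passed as higher for 0.0359% and as lower for 0.0287% (limma); it was not tested for the 8, which were chosen on both differences. The median difference of the 8 was 1.22 at 3 months and 1.27 at 12 months, while that of all genes was 0.02 and 0.0066. Dqx1 and Tcte2 passed the filter of 1 FPKM in 3 libraries only through the N40K mice, and Stac3 had 4 of 6 wild-type libraries at 1 FPKM or more. Ranked by the smaller of the differences at both ages, the 8 genes stood between rank 4 (Gm14378, 1.40) and rank 21 (Tcte2, 0.97). The largest values outside the 8 were 1.59 for the joined entry Lgals4;Lgals6, 1.54 for Lgals6 and 1.43 for Lgals4, near-identical paralogues between which reads may be split, followed by Snrnp70 at 1.18 and Hnrnpu at 1.10.

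Among wild-type mice at 3 months, the order of mean levels was Gm14378, Ap1g2, Tmem86b, Dok3, Sds, Stac3, Tcte2 and Dqx1. Tmem86b and Dok3 overlapped in that group, as did Sds and Stac3, while the other neighbours in the order did not. The share of tested genes that lay below each of the 8 there ran from 0.402% for Dqx1 to 51.9% for Gm14378. In N40K mice of that age it ran from 16.5% for Dqx1 to 80.1% for Gm14378.

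The 12-month wild-type replicate 2 was the lowest of its group in 8 of 8 genes. Its depth estimate of 44.2 M fragments was the lowest of that group, and genes of the highest GC class of 5 lay 0.0374 below their group means (median, log2 scale), while those of the lowest class lay 0.0423 above; their part in the result was not tested. Without that library the 12-month difference was 0.95 for Dok3, 1.13 for Gm14378, 1.12 for Tmem86b and 0.87 for Ap1g2 on the log2 scale.

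All 8 transcripts were richer in G and C than the median tested gene, with a median of 55.4% against 50.3%. The range was from 53.3% for Tcte2 to 64.3% for Gm14378, which exceeded 99.2% of tested genes. Transcripts of 7 of the 8 were shorter than the median gene, with a median of 1717 bases against 3083, and Dqx1 was the exception at 3257 bases. The genes spanned a median of 7272.5 bases against 23723, and Tcte2, at 49382 bases, was the only one above the median of all genes. With each library's trend against GC content removed, the differences of all 8 kept their direction at both ages, as their choice for large rises made likely.

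The difference between the ages was tested, since it was not used to choose the genes. All libraries with high Xist were from 3-month mice, and the library names of the ages fall into separate number series. Age cannot be told apart from anything else that differed between those series. The 6 falls called below also passed with Xist as covariate. Across both genotypes, 6 of the 8 genes were lower at 12 months than at 3 months, beside 42.9% of all tested genes that fell and 17.7% that rose (limma, adjusted p under 0.05). Gm14378 had the largest fall, by 1.14 on the log2 scale (SE 0.12, adjusted p = 1.8e-05). Ap1g2 fell by 0.84 (adjusted p = 5.2e-05) and Stac3 by 0.83 (adjusted p = 7.9e-05). Sds fell by 0.54 (adjusted p = 7.1e-04), Tmem86b by 0.50 (adjusted p = 0.0021) and Dok3 by 0.44 (adjusted p = 0.0015). Differences were -0.10 for Tcte2 (adjusted p = 0.108) and -0.01 for Dqx1 (adjusted p = 0.92), which did not pass. The median of the 8 was -0.52 and that of all genes -0.092.

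The ages were also compared within each genotype. Every 12-month library lay below every 3-month library in both genotypes for Sds, Gm14378, Tmem86b, Stac3 and Ap1g2. Dok3 and Tcte2 were separated in this way in N40K mice, while their wild-type libraries overlapped. The share of all genes separated by age in this way was not computed. These separations therefore cannot be told apart from the fall of 42.9% of all tested genes (limma, adjusted p under 0.05). Gm14378 at 12 months was at 0.435 of its 3-month mean in N40K mice and at 0.419 in wild-type mice. The split of age calls depended on scaling: 29.1% of calls were rises as deposited, and 48.5% after median-ratio scaling. The calls for Dok3 and Tmem86b were lost on removal of length trends (adjusted p = 0.0557 and 0.0598), and that for Dok3 also on removal of GC trends (adjusted p = 0.135).

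**Figure D2:**
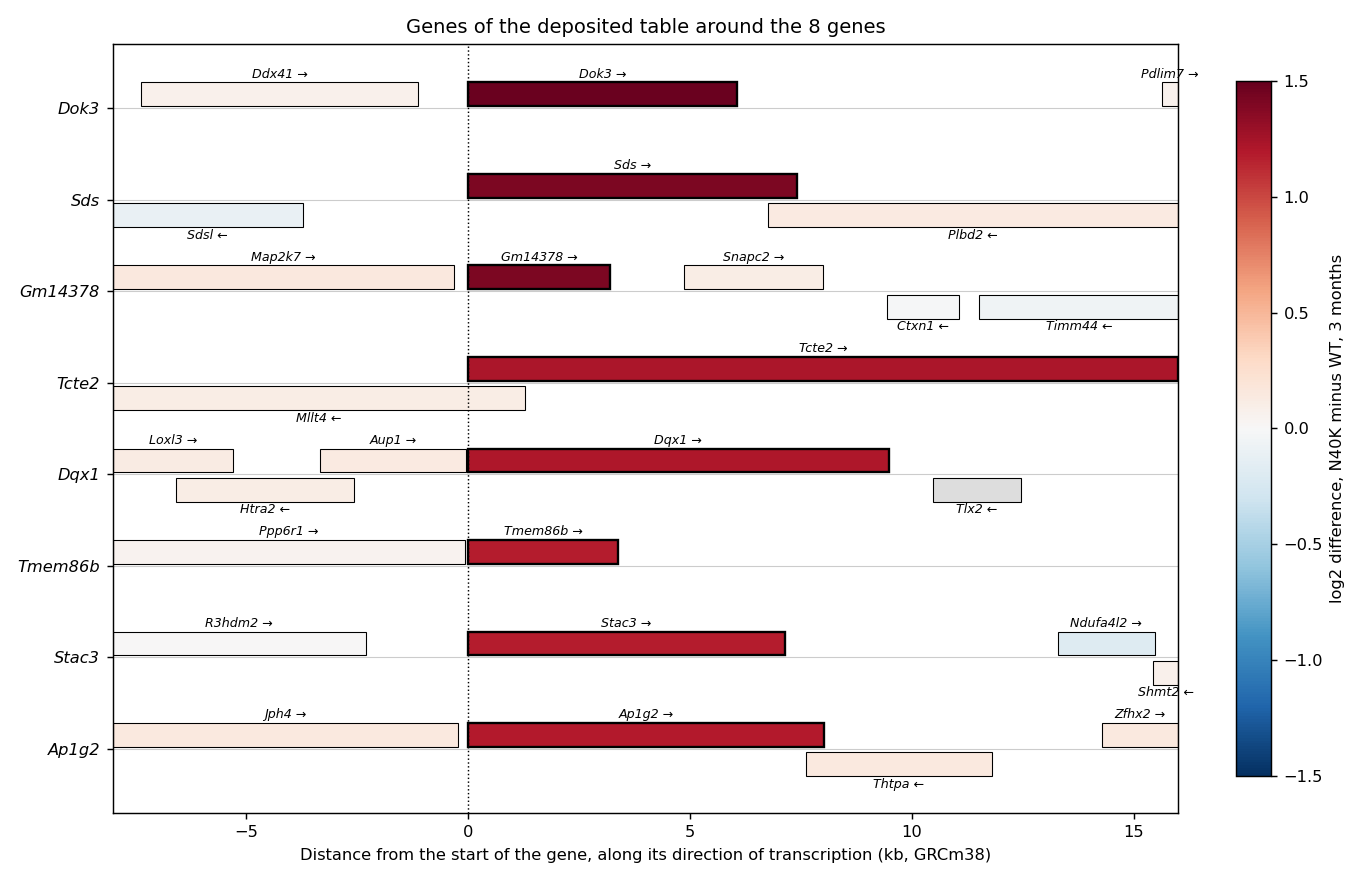
Genes of the deposited table around each of the 8 genes, by distance from the start of the gene in kb along its direction of transcription (GRCm38 models, cut at the frame); the upper row of boxes is the same strand, the lower row the opposite one, and colour gives the log2 difference of N40K minus wild type at 3 months (grey, not tested). The 8 outlined genes are dark red, with differences of 1.18 to 1.49, and the tested genes that overlap or flank them lie between -0.19 and 0.16.

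The tested neighbours of the 8 genes had small differences between the genotypes, while the untested 2700054A10Rik, described below, was lower in N40K mice. Of 19 overlapping or flanking genes with a row, 15 passed the filter. At 3 months 2 of the 15 were higher and none was lower in N40K mice (background 7.95% higher and 3.49% lower). At 12 months 5 were higher and 1 was lower (background 11.2% and 7.71%). Their differences ran from -0.19 to 0.16 at 3 months and from -0.13 to 0.33 at 12 months. The level of each gene as a percentage of its upstream neighbour, given below for 3 months, reflects the rises used in the choice.

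Ddx41, an RNA helicase gene upstream of Dok3 with a gap of 1113 bases, was at 23.3, 22.2 and 22.6 FPKM in N40K mice at 3 months, against 22.5, 20.6 and 21.6 FPKM in wild-type mice. These overlapped, and the log2 difference was 0.07 (limma, adjusted p = 0.44). At 12 months Ddx41 rose by 0.27 in N40K mice (adjusted p = 0.0054). Dok3 was at 80.7% of the Ddx41 level in N40K mice at 3 months and at 27.5% in wild-type mice.

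Map2k7, which encodes a kinase that activates JNK, ends 316 bases before Gm14378. It was at 29.7, 27.6 and 26.5 FPKM in N40K mice at 3 months, against 25.5, 24.4 and 24.8 FPKM in wild-type mice. The groups did not overlap, and it rose by 0.16 at 3 months (limma, adjusted p = 0.047) and by 0.21 at 12 months (adjusted p = 0.0103). The 3-month call was lost under 17 of 20 alternatives. Gm14378 was at 99.1% of the Map2k7 level in N40K mice at 3 months and at 39.5% in wild-type mice.

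Aup1, whose product acts in protein degradation at the endoplasmic reticulum, ends 35 bases before Dqx1. It was at 59.7, 59.8 and 61.5 FPKM in N40K mice at 3 months, against 55.8, 52.6 and 55.9 FPKM in wild-type mice. The groups did not overlap, but the difference of 0.14 did not pass (limma, adjusted p = 0.17), nor did that of 0.05 at 12 months (adjusted p = 0.58). Without wild-type replicate 2 of the 12-month group, the 3-month difference passed (adjusted p = 0.0215). Dqx1 was at 3.91% of the Aup1 level in N40K mice at 3 months and at 0.834% in wild-type mice.

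Ppp6r1, which encodes a regulatory subunit of a protein phosphatase, ends 72 bases before Tmem86b. It was at 58.97, 60.3 and 62.2 FPKM in N40K mice at 3 months, against 61.5, 55.8 and 57.5 FPKM in wild-type mice. The groups overlapped, with differences of 0.05 at 3 months and 0.08 at 12 months (limma, adjusted p = 0.582 and 0.343). Tmem86b was at 26.7% of its level in N40K mice and at 11.3% in wild-type mice at 3 months.

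R3hdm2 ends 2301 bases before Stac3. It was at 39.4, 37.96 and 45.7 FPKM in N40K mice at 3 months, against 44.0, 37.2 and 40.9 FPKM in wild-type mice. These overlapped (difference 0.01, limma, adjusted p = 0.965), and at 12 months the difference of 0.23 did not pass (adjusted p = 0.105). Stac3 was at 16.4% of the R3hdm2 level in N40K mice and at 5.95% in wild-type mice at 3 months.

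Jph4, a junctophilin gene of neurons, ends 232 bases before Ap1g2. It was at 89.1, 89.6 and 93.2 FPKM in N40K mice at 3 months, against 84.9, 80.7 and 79.8 FPKM in wild-type mice. The 12-month levels were 67.7, 67.5 and 64.03 FPKM in N40K mice, against 71.7, 74.2 and 71.7 FPKM in wild-type mice. It was higher in N40K mice at 3 months, by 0.15 (limma, adjusted p = 0.037), and lower at 12 months, at -0.13 (adjusted p = 0.047). Those calls were lost under 12 and 16 of 20 alternatives. Ap1g2 was at 19.6% of the Jph4 level in N40K mice and at 8.80% in wild-type mice at 3 months.

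**Figure D3:**
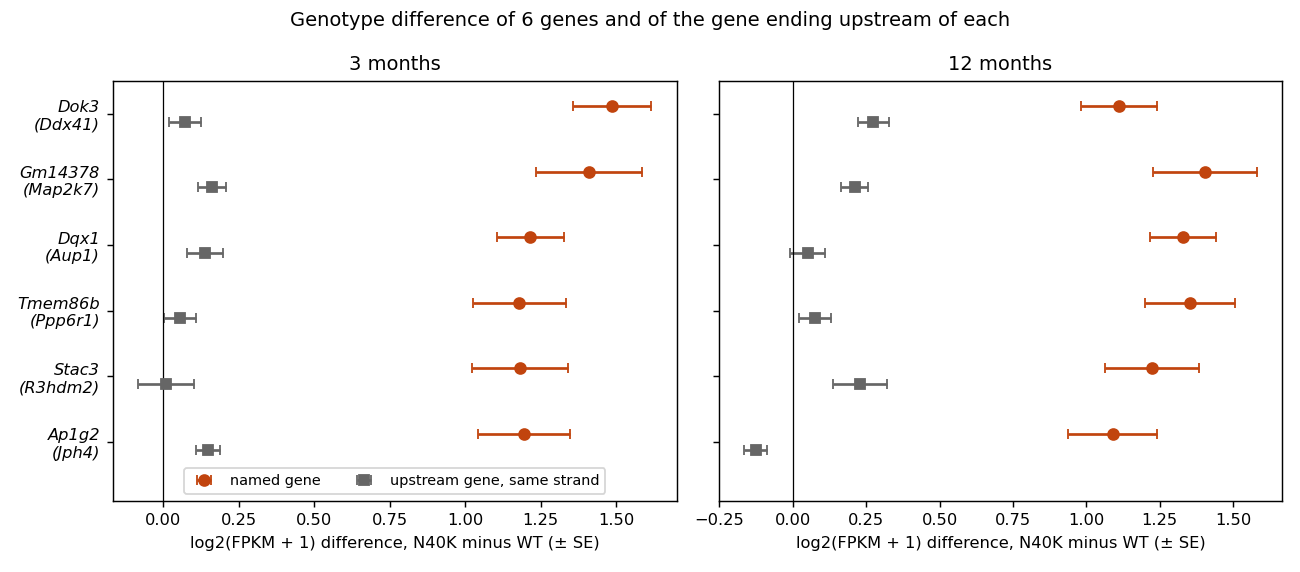
Log2(FPKM + 1) difference of N40K minus wild-type mice, with standard error, for 6 of the genes (circles) and for the gene that ends upstream of each on the same strand (squares), at 3 and 12 months. The circles lie between 1.09 and 1.49 and the squares between -0.13 and 0.27.

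Genes on the opposite strand overlap 3 of the 8. Plbd2, a lysosomal protein gene, overlaps the end of Sds, Thtpa, which encodes thiamine triphosphatase, overlaps the end of Ap1g2, and Mllt4 (now Afdn), which encodes the junction protein afadin, overlaps the start of Tcte2. Mllt4 differed by 0.12 at 3 months and 0.18 at 12 months (limma, adjusted p = 0.259 and 0.059). Thtpa differed by 0.15 at 3 months (adjusted p = 0.074) and rose by 0.17 at 12 months (adjusted p = 0.0345), a call lost under 6 of 20 alternatives. Plbd2 differed by 0.13 at 3 months (adjusted p = 0.388) and rose by 0.27 at 12 months (adjusted p = 0.04997), a call lost under 15 of 20 alternatives. Whether reads were counted by strand is not known from the labels, and reads from overlapping genes on opposite strands cannot be told apart. Antisense genes with no row also overlap Sds (Gm15690) and Ap1g2 (Gm20687), and a lincRNA with no row overlaps Tcte2.

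For Tcte2 and Sds the nearest upstream gene with a row lay on the opposite strand. That of Sds is its paralogue Sdsl, 3715 bases away. It was at 3.16, 3.39 and 3.71 FPKM in N40K mice at 3 months, against 3.66, 3.45 and 4.23 FPKM in wild-type mice. The groups overlapped, with a difference of -0.11 (limma, adjusted p = 0.533). Tcte2 starts within Mllt4, which is read in the other direction, and its promoter window is printed because it stood apart in CG pairs.
Tcte2 promoter window (RefSeq, GRCm38.p6, chr17:13761354-13761653, minus strand, CG pairs in capitals): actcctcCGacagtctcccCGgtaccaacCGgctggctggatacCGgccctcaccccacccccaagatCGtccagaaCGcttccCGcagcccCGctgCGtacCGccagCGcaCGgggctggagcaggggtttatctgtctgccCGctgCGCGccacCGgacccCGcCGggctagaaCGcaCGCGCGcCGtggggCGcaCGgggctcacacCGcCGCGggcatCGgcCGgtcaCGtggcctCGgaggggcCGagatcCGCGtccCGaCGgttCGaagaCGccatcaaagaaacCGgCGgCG
It held 42 CG pairs, more than 97.0% of the 32851 RefSeq windows, whose median was 7. Of the other windows matched, those of Dok3, Gm14378 and Tmem86b held 6, 7 and 1.

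Downstream neighbours gave 1 call. Zfhx2, a homeobox gene downstream of Ap1g2, rose by 0.33 at 12 months (limma, adjusted p = 0.0324), a call lost under 5 of 20 alternatives. The gene downstream of Tcte2, 2700054A10Rik, was too low to be tested. It was at 0.362, 0.380 and 0.374 FPKM in N40K mice at 3 months, against 0.961, 1.11 and 0.884 FPKM in wild-type mice. Among the older mice it was at 0.295, 0.195 and 0.257 FPKM in N40K mice, against 0.704, 0.508 and 0.649 FPKM in wild-type mice, so that its N40K libraries lay below the wild-type ones at both ages.

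A close same-strand upstream neighbour is an uncommon arrangement. Of 13740 tested genes with an annotated neighbour, 50.7% had the upstream neighbour on the same strand, and 7.26% (997 genes) had it there within 2301 bases. The 6 upstream genes were at 21.6 to 77.2 FPKM in wild-type mice. The median upstream neighbour of all tested genes, at any distance and on either strand, was at 4.94 FPKM. The level for the 997 genes alone was not computed.

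The other genes with such a neighbour were then described, leaving out the 8. The distance classes and limits were chosen after the values were seen, so no test is given. At 3 months 18.5% of 270 genes with a same-strand upstream neighbour under 500 bases away were higher in N40K mice, 15.4% of 797 genes at 500 to 2500 bases and 4.38% of 1714 genes at 50000 bases or more. With the neighbour on the opposite strand, the share was 8.89% of 1361 genes under 500 bases. The share over all 13732 genes was 7.85%. At 12 months the shares on the same strand were 16.7%, 15.3% and 8.87% in those classes, 12.6% on the opposite strand under 500 bases and 11.0% over all. The share in the nearest same-strand class at 3 months was 11.9% without wild-type replicate 2 and 12.2% without N40K replicate 3 of that age (4.04% and 4.41% over all genes), and 11.9% with GC trends removed (5.32% over all). At 12 months that share was 9.63% without N40K replicate 1 and 10.4% without N40K replicate 2 (6.07% and 6.22% over all genes). The opposite-strand share under 500 bases at 3 months was 4.70% without wild-type replicate 2, 4.92% without N40K replicate 3, 5.29% without N40K replicate 2 and 5.88% without wild-type replicate 1 of that age. At 12 months it was 6.76% without N40K replicate 1 and 7.49% without N40K replicate 2. Leaving out 1 library of the same age gave 1.98% (N40K replicate 2) to 3.68% (N40K replicate 1) in the farthest same-strand class at 3 months, and 4.20% (N40K replicate 1) to 8.58% (wild-type replicate 3) at 12 months.

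**Figure D4:**
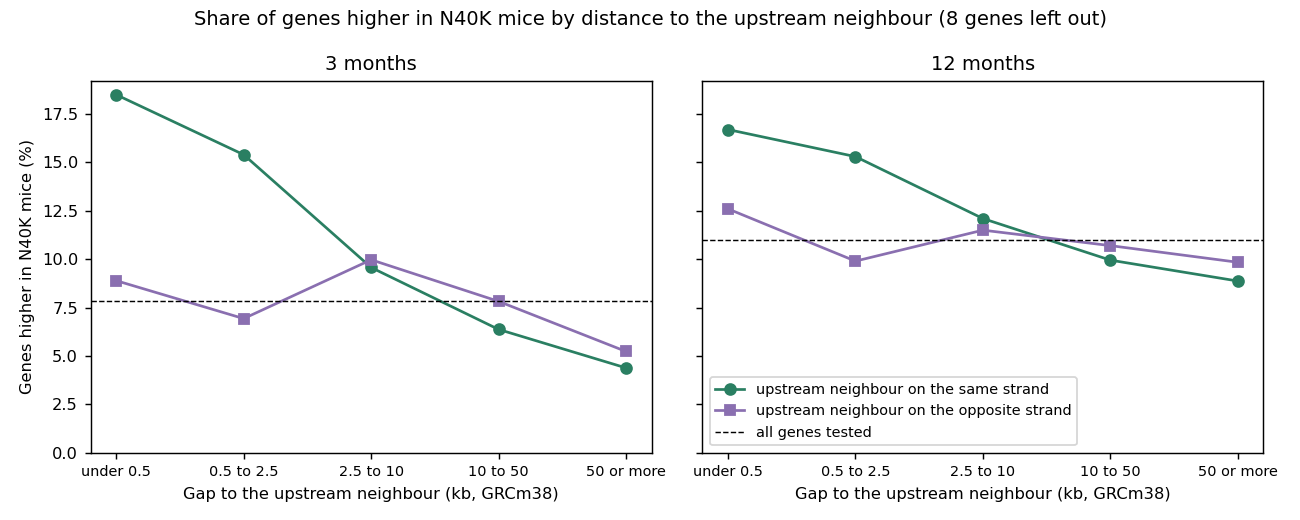
Share of tested genes higher in N40K mice (%, limma, adjusted p under 0.05) by the gap to the upstream neighbour in kb, for neighbours on the same strand (circles) and on the opposite strand (squares), with the share over all genes dashed; the 8 genes are left out. At 3 months the same-strand share ran from 18.5% in the nearest class to 4.38% in the farthest, and at 12 months from 16.7% to 8.87%.

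With limits set by the 6 genes themselves (own wild-type level under 10 FPKM, same-strand upstream gene at 20 FPKM or more and within 2301 bases), 140 further genes remained. Of these 27.1% were higher and 0% were lower in N40K mice at 3 months. The same limits on the opposite strand gave 195 genes, of which 15.9% were higher and 3.59% lower; the share higher was 8.72% without N40K replicate 3 and 9.23% without wild-type replicate 2 of that age (4.41% and 4.04% over all genes), and 9.23% with quantile normalization (5.49% over all). A limit on the wild-type level, which also enters the difference, can tilt each of these classes towards rises. Low genes may also pass the filter only through N40K mice. All genes under 10 FPKM, which share that limit, gave 8.61% and 2.12%. At 12 months the strands were not ordered in this way, with 22.9% higher on the same strand and 26.2% on the opposite one; without N40K replicate 1 of that age the shares were 15.7% and 14.4%, without N40K replicate 2 they were 15.7% and 15.9%, and without wild-type replicate 2 they were 17.1% and 16.9%. Quantile normalization also gave 17.1% on the same strand and 16.9% on the opposite one at 12 months. With GC trends removed, the 3-month share of the 140 genes was 20.7%, beside 5.32% of all genes, and without wild-type replicate 1 of that age it was 17.9%, beside 5.02%.

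The profiles of the 8 genes over the 12 libraries were alike, as their choice made likely. Each correlated with the mean profile of the other 7 at Pearson r between 0.90 (Dqx1) and 0.99 (Tmem86b). Among all other tested genes, the 5 with the closest profile to the mean of the 8 were Snrnp70 (r = 0.995), Ring1 (0.992), Car15 (0.988), Lgals4 (0.987) and Sf1 (0.986). These r are over 12 libraries that fall into 4 groups, so the group differences enter them, and no p is given. Car15 starts 1117 bases after Dgcr2 and Lgals4 starts 1606 bases after Ech1, each on the same strand. Ring1 starts 302 bases after the microRNA gene Mir219-1 and Sf1 starts 8074 bases after Map4k2, also on the same strand. The nearest upstream gene of Snrnp70, Kcna7, lies 9910 bases away on the opposite strand.

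**Figure D5:**
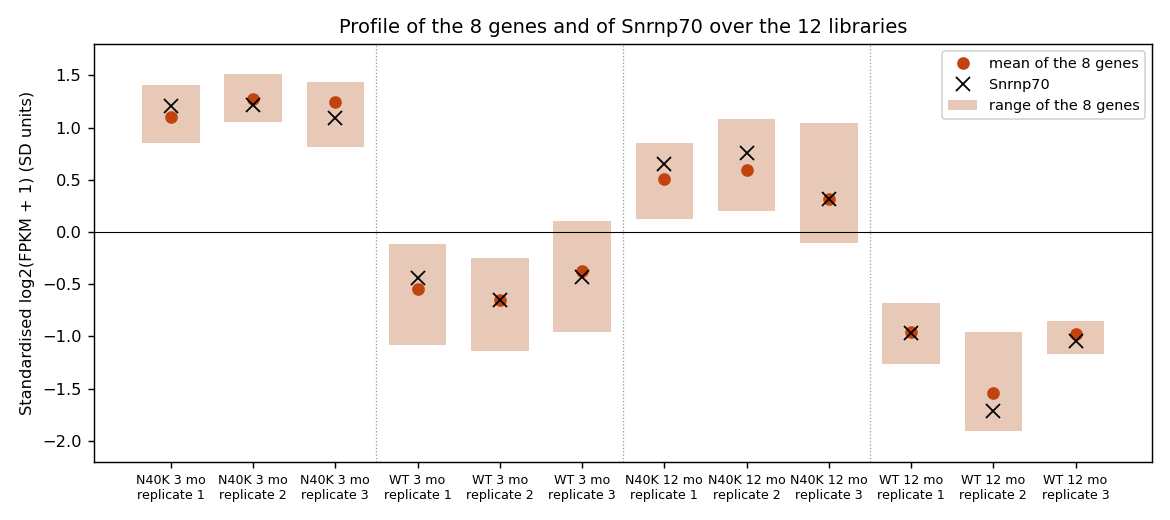
Standardised log2(FPKM + 1) level in each library, in SD units, of the mean of the 8 genes (circles), of their range (bars) and of Snrnp70 (crosses). Snrnp70 lies inside the range of the 8 genes in all 12 libraries, and both are lowest in wild-type replicate 2 at 12 months.

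Relatives and partners of the 8 genes were mostly measured without a call. Of all 13945 genes, 3552 at 3 months and 4801 at 12 months were under an unadjusted p of 0.05 (limma). Of the Dok family, 5 were tested and none was called at either age (limma), with 0 under an unadjusted p of 0.05. Dok4 and Dok5 had the smallest p-values at 3 and 12 months, with differences of 0.14 and 0.24 (adjusted p = 0.233 and 0.19). Of 3 tested signalling partners of Dok3 none was called, 0 at 3 months and 2 at 12 months being under an unadjusted p of 0.05, and Grb2 and Lyn were at -0.15 and -0.21 at 12 months (adjusted p = 0.051 and 0.054). The 11 markers of microglia, a cell type related to those in which Dok3 is known, summed to 298 to 331 FPKM in N40K mice, against 303 to 326 FPKM in wild-type mice at 3 months, and to 298 to 305 FPKM in N40K mice, against 288 to 326 FPKM in wild-type mice at 12 months. Tmem119 was lower at 12 months (-0.24, limma, adjusted p = 0.0375, a call lost under 6 of 19 alternatives), the other 10 were not called, and their part in the result was not tested.

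Calls in the lists are given beside the shares of all genes, 7.95% higher and 3.49% lower at 3 months and 11.2% and 7.71% at 12 months. In serine metabolism 1 of 7 genes was higher at 3 months and none was called at 12 months (1 under an unadjusted p of 0.05): Shmt1, a serine hydroxymethyltransferase, rose by 0.26 (limma, adjusted p = 0.037), a call lost under 14 of 19 alternatives. Of 16 DEAH-box helicases, the relatives of Dqx1, 1 was higher at 3 months and none was called at 12 months (4 under an unadjusted p of 0.05): Dhx37 rose by 0.26 at 3 months (adjusted p = 0.027, lost under 6 of 19). Among 7 ether lipid genes, 2 were higher and 1 lower at 3 months, and 2 were higher at 12 months. Tmem86a, the paralogue of Tmem86b, differed by -0.06 at 3 months and -0.02 at 12 months. Far1, which makes fatty alcohols for ether lipids, rose by 0.19 at 3 months (adjusted p = 0.047, lost under 13 of 19 alternatives) and by 0.26 at 12 months (adjusted p = 0.0083). Pex7, a peroxisomal import receptor, rose by 0.25 at 3 months (adjusted p = 0.013, lost under 2 of 19). Far2 fell by 0.20 at 3 months (adjusted p = 0.026, lost under 4 of 19) and rose by 0.17 at 12 months (adjusted p = 0.032, lost under 6 of 19).

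In the adaptor complex of Ap1g2, 5 of 7 genes were tested, of which 1 was lower at 3 months and 2 at 12 months and none was higher (background 3.49% and 7.71% lower). The beta subunit gene Ap1b1 was at 41.4 FPKM in N40K mice and 50.1 FPKM in wild-type mice at 3 months (means of 3), and fell by 0.27 (limma, adjusted p = 0.0051). At 12 months it was at 37.6 FPKM in N40K mice and 46.7 FPKM in wild-type mice, and fell by 0.30 (adjusted p = 0.0021). Ap1s1 fell by 0.27 at 12 months (adjusted p = 0.041, lost under 10 of 19 alternatives). Ap1g1, the paralogue of Ap1g2, differed by -0.03 at 3 months and 0.05 at 12 months. Of the genes around Stac3, 4 were tested and none was called at either age, with 0 under an unadjusted p of 0.05, Stac differing by -0.17 at 3 months and Ryr1 by 0.26 at 12 months (adjusted p = 0.265 and 0.209). Of the t-complex genes, 2 passed the filter and neither was called, 0 at 3 months and 1 at 12 months being under an unadjusted p of 0.05. Tcp1 was at -0.16 at 12 months (adjusted p = 0.088) and Tcte1 at 0.14 at 3 months (adjusted p = 0.294).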

How the data were processed

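RNA was poly-A selected from hippocampus of 12 mice and sequenced as paired reads. The authors deposited FPKM values in 1 table of 23352 entries, 128 of them with joined names, and all 12 columns matched a library in the labels. Per the submitters' processing notes, the mm9 build was used together with BWA, STAR and CASAVA; the counting tool, annotation and strand setting are not given in the sources used here. Nothing in the labels ties libraries to separate litters, so p-values measure the spread between these libraries.

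Genes with 1 FPKM or more in 3 libraries (13945) were fitted as log2(FPKM + 1) in 1 limma model (limma 3.58.1, R 4.3.3) with a mean per group, eBayes with a trend, two-sided tests and Benjamini-Hochberg adjustment over all genes (threshold 0.05). The procedure was tested on simulated data. Neighbours, transcript length and GC content came from GENCODE M21 on GRCm38, matched by name or RefSeq synonym for 97.9% of entries, so positions are relative and not those of the files' build. Depths came from steps between low FPKM values (54.7% to 75.0% whole within 0.03 of a fragment), so no count test was run. The 8 genes and all lists were chosen with earlier results of these data known. Named genes were the 8, Snrnp70, overlapping and flanking genes, called members of the lists and otherwise up to 2 with the smallest p, the 5 closest profiles and the 5 largest differences outside the 8. Alternatives were a pseudocount of 0.1, no filter, median-ratio scaling, quantile normalization, Xist as covariate, the replicate number as block and each library left out; removal of GC or length trends (lowess, span 0.3) was added after seeing the data. Tables and plots were made in Python 3.11.15 (matplotlib 3.10.9, numpy 2.4.6, pandas 2.3.3).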

Additional observations from a re-analysis of the deposited data

Results flagged for a closer look

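Jph4, the gene upstream of Ap1g2, was higher in every N40K library than in any wild-type library at 3 months and lower in every one at 12 months. The 12-month difference minus the 3-month difference was -0.27 on the log2 scale, and the test of that change did not pass (limma, adjusted p = 0.119). Psph, which makes serine from phosphoserine, showed the same order of libraries, with a change of -0.22 (adjusted p = 0.203). Far2 was lower in every N40K library at 3 months and higher in every one at 12 months, with a change of 0.37 (adjusted p = 0.0919).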

How the results depend on the processing

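The genotype differences of the 8 genes kept their direction in all 320 recomputed values, and 307 of them moved by less than the spread between replicates. The genes were chosen for large rises in these same libraries, so a kept direction was likely beforehand and is no support for the rises. With a pseudocount of 0.1 the differences of Dqx1 were 2.21 at 3 months and 2.45 at 12 months. Counts of called genes were 1596 at 3 months and 797 to 2226 when 1 library was left out, 2632 at 12 months and 1356 to 2607, and 8452 for age and 7900 to 8698. With Xist as covariate the 3-month count was 1106. For the change of the genotype effect with age the count was 9 (1997 at an unadjusted p under 0.05) and 0 to 162 with 1 library left out; it was 0 with Xist as covariate (1832 unadjusted), 3 with GC trends and 4 with length trends removed. Same-numbered libraries correlated at -0.456 to 0.0569 at 3 months and 0.00108 to 0.197 at 12 months, so the numbers did not pair them; with the replicate block the counts were 1310, 2343, 8375 and 0 (1924 unadjusted). At 3 months 69.5% of calls were higher in N40K mice, 53.5% after median-ratio scaling, 54.4% after quantile normalization, 52.7% with GC trends and 54.0% with length trends removed; for age the share of rises was 29.1%, 48.5%, 45.8%, 48.4% and 49.3%.

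Directions turned only for small differences that had not passed. The age difference of Tcte2 was 0.0199 with GC and 0.0800 with length trends removed. That of Dqx1 was 0.0400 after median-ratio scaling, 0.120 with GC trends and 0.0973 with length trends removed, and -0.0522 to 0.0495 with 1 library left out. At 3 months Ppp6r1 was at -0.0185, Pdlim7 at -0.0512, Slc24a6 at -0.0323 and R3hdm2 at -0.0336 with GC trends removed. R3hdm2 was at -0.0216 after median-ratio scaling, -0.0128 after quantile normalization and -0.0065 with length trends removed, and -0.0680 to 0.0663 with 1 library left out. Slc24a6 was at -0.0123 at 3 months and -0.0128 at 12 months after quantile normalization, and Aup1 was at -0.0278 to 0.103 at 12 months with 1 library left out. The causes were not tested. The lowest estimated fragment count of the 8 genes was 33, for Dqx1 in wild-type replicate 2 at 12 months.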
